A study of Mus musculus with 6 samples.

Results

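Superficial zone and lubricin genes were followed in articular cartilage of young and aged mice by poly(A) RNA sequencing. The 8 genes Prg4, Erg, Creb5, Cilp, Cilp2, Clu, Gdf5 and Tppp3 were taken by name from a table of 33971 genes, each with 6 read counts and 6 FPKM values (fragments per kilobase of transcript, scaled to the mapped fragments of the library), and all 8 passed the filter on low counts that left 20397 genes for testing. The young group was 3 libraries of cartilage from wild-type mice at 2 months of age, and the aged group was 3 libraries of cartilage from wild-type mice at 18 months, with no treatment and no engineered allele named for either. The strain, the number of animals pooled in a library and the joint the cartilage came from are not given in the sources used here for these 6 libraries, so p-values measure only the spread between these samples, which may be technical.

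Articular cartilage is layered. Flat cells at the surface make lubricin, the product of Prg4, a mucin-like glycoprotein that coats the cartilage and lowers friction, and loss of lubricin in mice or people leads to joint failure. The rounder cells below make the aggrecan and type II collagen matrix that bears load, and the lowest layer is calcified and makes type X collagen. Surface cells descend from the joint interzone, the band of Gdf5-expressing cells where a joint forms in the embryo, and the factors Erg and Creb5 mark articular as opposed to growth plate cartilage.

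The libraries held 48171507 to 59085179 counts. Markers of other cells moved with age. A list of 10 chondrocyte genes took 3.20 to 5.89% of the counts at 2 months and 0.0554 to 0.128% at 18 months, and 10 of 10 were called lower. A list of 8 neutrophil genes took 0.000629 to 0.334% and then 3.77 to 4.10%, 8 erythroid genes 0.0204 to 0.563% and then 2.34 to 3.11%, 8 macrophage genes 0.00584 to 0.115% and then 0.604 to 0.796%, 7 megakaryocyte genes 0.00114 to 0.00799% and then 0.143 to 0.211%, and 8 B lymphocyte genes 0.00215 to 0.0496% and then 0.101 to 0.111%. In edgeR 6 megakaryocyte, 3 macrophage and 2 erythroid genes were called higher, and none lower. Over all genes tested 14.9% were called higher and 21.3% lower, and the 2 of 8 erythroid genes are not far from the first share. Of the neutrophil and B lymphocyte genes 0 were called, with 1 of each at an unadjusted p below 0.05, whereas DESeq2 called 7 and 1 of them higher. At 0 were Elane in young replicate 3, Epor and Adgre1 in young replicate 1, Gp9 in young replicates 1 and 3, and Ppbp in young replicate 3. Young replicate 2 had the highest value of the 3 young libraries in these lists and in all 10 cell type marker lists read here, the chondrocyte list included. In bulk samples such as these, fewer cells of a type and less RNA per cell cannot be told apart, and the part of these other cells in the results below was not tested. Xist had 88239, 102417 and 101615 counts in the young libraries and 11, 27 and 30 in the aged ones, whereas the study's methods describe male mice, so that a difference in sex and the difference in age cannot be told apart in any comparison here.

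All 8 genes had lower mean FPKM in aged cartilage, and 6 of them were called lower: Prg4, Erg, Creb5, Cilp2, Clu and Tppp3. A call needs a log2 fold change beyond 1 and an adjusted p below 0.05 (edgeR, quasi-likelihood fit, Benjamini-Hochberg over all 20397 genes), and 21.3% of all genes tested were called lower. The same 6 genes had an adjusted p below 0.05 and a lower level whatever the size of the fold change, as had 27.9% of all genes. None of the 8 was called higher, against 14.9% of all genes, and DESeq2 called 7 lower and 0 higher. The median log2 fold change, aged over young, was −2.76 over the 8 genes and −0.02 over all genes tested. In 7 of the 8, every gene except Cilp, each aged library lay below each young one, which held for 32.8% of all genes, and in 0 of the 8 did each aged library lie above each young one, which held for 35.6%. Together the 8 genes took 3.46, 1.44 and 3.76% of the counts in the young libraries and 0.857, 0.170 and 0.170% in the aged ones. By this summed share, young replicate 2 and aged replicate 1 stood apart from the other libraries of their age, each lying nearer to the other age. This does not hold for every list, since young replicate 2 had the highest chondrocyte share of all libraries, 5.89%. The count called lower was 8 without aged replicate 1 and 7 without young replicate 2, but 3 without young replicate 1 and 2 without young replicate 3, aged replicate 2 or aged replicate 3.

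**Figure D1:**
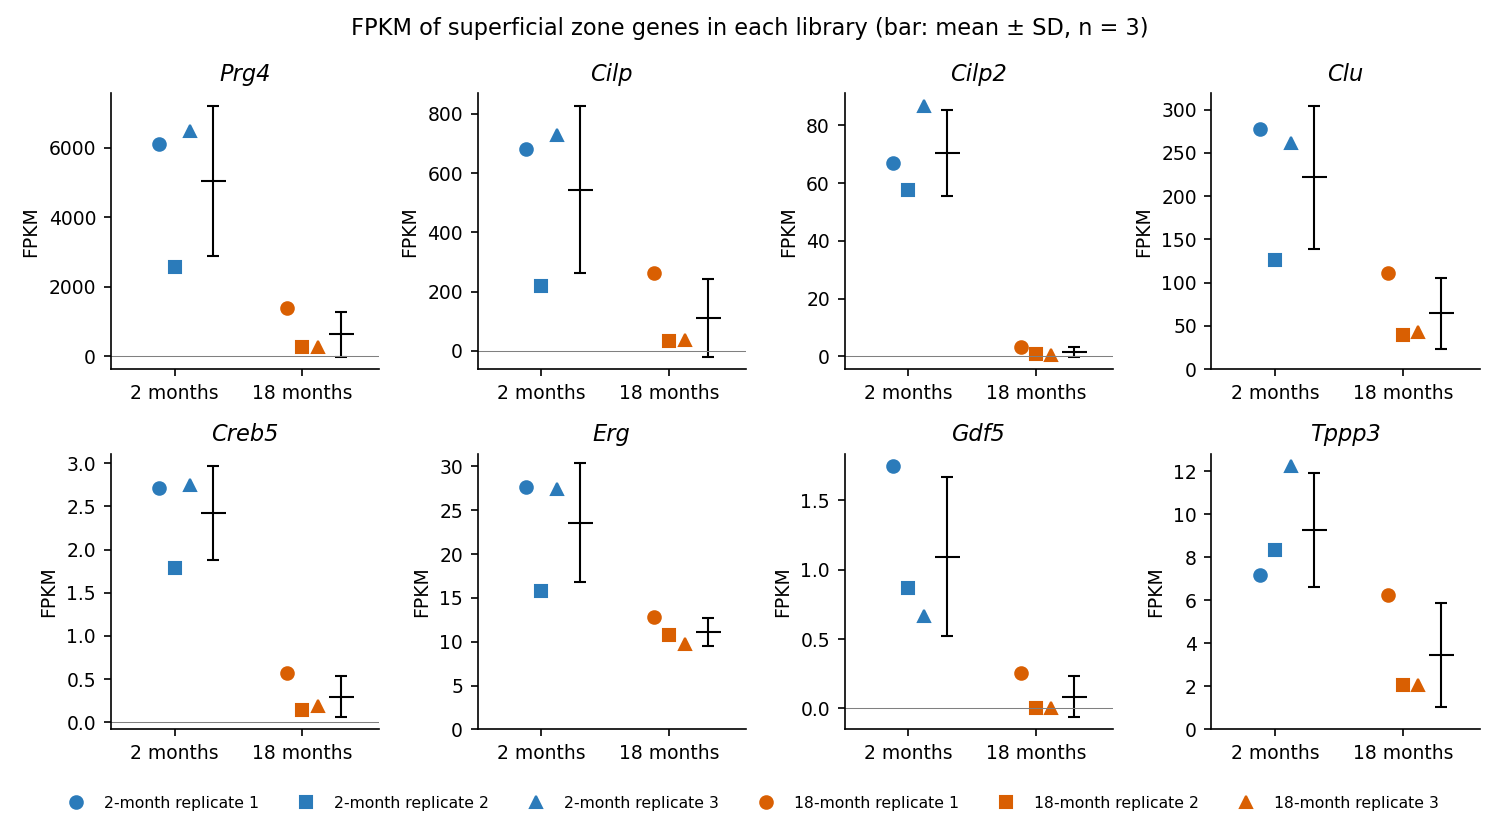
FPKM of the 8 genes in each library, 1 panel a gene with its own linear axis; points are the 3 young (2-month) and 3 aged (18-month) libraries, and bars are the mean ± SD (n = 3 each). The aged points lie below the young points in every panel except Cilp, where aged replicate 1 at 262 FPKM is above young replicate 2 at 219.9.

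Prg4 (ENSMUSG00000006014; GRCm38 chromosome 1, 150449412 to 150466165, minus strand), the lubricin gene, had 6097, 2575 and 6475 FPKM in the young libraries and 1389, 272 and 266 in the aged ones. It was very abundant in young cartilage, ranking 4, 8 and 3 by FPKM among all genes there, and it still ranked 29, 133 and 136 in the aged libraries. Its counts were 1433485, 644801 and 1555744 at 2 months, and in young replicate 3 no gene had more. These were 2.97, 1.25 and 3.23% of all counts, compared with 0.677, 0.132 and 0.130% at 18 months. The 95% Wilson interval was 2.96 to 2.97% in young replicate 1 and 0.129 to 0.131% in aged replicate 3; such intervals, and the floors for counts of 0 given further on, cover counting error only. The mean fell from 5049 ± 2151 to 642 ± 647 FPKM (SD, n = 3 each), with a log2 fold change of −3.10 (SE 0.90, edgeR adjusted p = 0.0322). Among all genes tested, 7.07% had a lower log2 fold change than Prg4. The aged libraries did not overlap the young ones, but 2 of them lay close together and aged replicate 1 was 4.97 times their mean in CPM, counts scaled to the library's total after adjustment by edgeR's trimmed mean of M values (TMM). Without aged replicate 1 the log2 fold change was −4.31 (adjusted p = 0.0104), and without young replicate 2 it was −3.42 (adjusted p = 0.0127). The call was lost when aged replicate 2 (adjusted p = 0.101), aged replicate 3 (0.10), young replicate 1 (0.0623) or young replicate 3 (0.0810) was left out. The end of Prg4 overlaps the end of Tpr on the opposite strand by 524 bases, and Tpr had at most 14711 counts in any library, against at least 72509 for Prg4.

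The cartilage intermediate layer proteins are secreted matrix glycoproteins of cartilage. Cilp (ENSMUSG00000042254; chromosome 9, 65265180 to 65280605, plus strand) had 683, 219.9 and 730 FPKM in young cartilage and 262, 35.1 and 37.4 in aged cartilage. Aged replicate 1 lay above young replicate 2, so the groups overlapped. The mean was 545 ± 282 FPKM at 2 months and 112 ± 130 at 18 months (SD, n = 3 each), and the log2 fold change of −2.42 (SE 0.98) missed the threshold (adjusted p = 0.0854). It passed without aged replicate 1 (−3.99, adjusted p = 0.0140) or without young replicate 2 (−2.80, adjusted p = 0.0432).

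Cilp2 (ENSMUSG00000044006; chromosome 8, 69880369 to 69887687, minus strand), the paralog of Cilp, had 67.0, 57.6 and 86.7 FPKM at 2 months and 3.33, 0.759 and 0.431 at 18 months. The groups were far apart, and the lowest young library lay well above every aged one. Its mean of 70.4 ± 14.8 FPKM fell to 1.51 ± 1.59 (SD, n = 3 each), a log2 fold change of −5.66 (SE 0.91, adjusted p = 0.00470) and the most negative of the 8. Cilp2 and Creb5 were the genes whose call held in all 18 alternative settings, including each library left out in turn. The paralogs thus differed in level within each library: the FPKM ratio of Cilp to Cilp2 was 10.2, 3.82 and 8.43 in young cartilage and 78.8, 46.3 and 86.9 in aged cartilage. These ratios did not overlap between the ages.

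Clu (ENSMUSG00000022037; chromosome 14, 65968483 to 65981547, plus strand) encodes clusterin, a secreted chaperone found at the cartilage surface and also made by many other cells. It had 278, 127 and 261 FPKM in the young libraries and 111, 39.3 and 42.2 in the aged ones. The gap between the groups was narrow, from 111 in aged replicate 1 to 127 in young replicate 2. The mean fell from 222 ± 82.8 to 64.3 ± 40.8 FPKM (SD, n = 3 each), with a log2 fold change of −1.90 (SE 0.54, adjusted p = 0.0309). The call held without aged replicate 1 (adjusted p = 0.0149) or young replicate 2 (0.00909) and was lost without aged replicate 2 (0.0960), aged replicate 3 (0.10), young replicate 1 (0.0761) or young replicate 3 (0.0873).

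Among the transcription factors, Creb5 (ENSMUSG00000053007; chromosome 6, 53287270 to 53700376, plus strand) is a bZIP protein known to be needed for Prg4 expression in articular chondrocytes. It had 2.72, 1.79 and 2.75 FPKM in young cartilage and 0.567, 0.139 and 0.182 in aged cartilage. Every aged library was well below the lowest young one. The mean fell from 2.42 ± 0.545 to 0.296 ± 0.235 FPKM (SD, n = 3 each), with a log2 fold change of −3.13 (SE 0.60, adjusted p = 0.00815). These levels rest on 2627 to 3874 counts in the young libraries and 221 to 956 in the aged ones.

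Erg (ENSMUSG00000040732; chromosome 16, 95359169 to 95586593, minus strand), an ETS family factor of joint cartilage and of endothelium, had 27.6, 15.7 and 27.4 FPKM at 2 months and 12.8, 10.7 and 9.73 at 18 months. It moved least of the 8, and the aged libraries lay just below young replicate 2. The mean fell from 23.6 ± 6.79 to 11.1 ± 1.59 FPKM (SD, n = 3 each), a log2 fold change of −1.18 (SE 0.28, adjusted p = 0.0162). The call was lost without aged replicate 2 (adjusted p = 0.0600), aged replicate 3 (0.0634) or young replicate 3 (0.0553). Because endothelium also expresses Erg, 8 endothelial genes were read beside it. None of them was called in either direction by edgeR or by DESeq2, and 0 had an unadjusted p below 0.05 in edgeR. Their share of counts was 0.00127, 0.0306 and 0.00447% in young replicates 1, 2 and 3 and 0.0218 to 0.0228% in aged libraries. Young replicate 2 thus lay above every aged library, and young replicates 1 and 3 lay below every one. With the young libraries so far apart, the lack of calls does not show a steady endothelial level. All 8 had a positive log2 fold change, with a median of 0.69, from 0.14 for Cdh5, the cadherin of endothelial junctions, to 1.88 for Esam, an endothelial adhesion molecule (adjusted p = 0.194). For Esam the aged libraries all lay above the young ones. The endothelial part in the Erg values was not tested.

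Promoter sequence of RefSeq (GRCm38.p6) was matched for 4 of the 8 genes, Erg, Creb5, Cilp and Cilp2, with 7 promoters in all. The 3 stretches below are shown because they lie directly before the gene as the deposited table has it, for Creb5 and Erg, which were called lower, and for Cilp, which was not called. Each ends at the base before that start, runs 5′ to 3′ on the gene's own strand, and has 1 motif in capitals. The Creb5 stretch has 217 bases, since its RefSeq start lies inside the deposited gene, and the other stretches have 250. The regions are chr6:53287053-53287269 (plus) for Creb5, chr16:95586594-95586843 (minus) for Erg and chr9:65264930-65265179 (plus) for Cilp.
Creb5: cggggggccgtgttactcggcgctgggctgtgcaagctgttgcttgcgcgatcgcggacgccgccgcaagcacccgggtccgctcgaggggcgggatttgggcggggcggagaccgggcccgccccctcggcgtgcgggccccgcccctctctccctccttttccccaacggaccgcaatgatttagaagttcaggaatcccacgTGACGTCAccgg
Erg: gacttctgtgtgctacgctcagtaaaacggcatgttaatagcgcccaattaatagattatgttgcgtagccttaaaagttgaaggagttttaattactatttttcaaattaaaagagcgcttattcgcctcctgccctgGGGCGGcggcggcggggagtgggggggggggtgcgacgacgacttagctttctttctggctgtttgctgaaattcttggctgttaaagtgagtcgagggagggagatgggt
Cilp: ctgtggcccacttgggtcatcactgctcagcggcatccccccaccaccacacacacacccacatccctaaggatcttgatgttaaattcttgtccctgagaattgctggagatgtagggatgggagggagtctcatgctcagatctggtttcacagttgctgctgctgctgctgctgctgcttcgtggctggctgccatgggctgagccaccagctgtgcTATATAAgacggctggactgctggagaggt

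The capitals mark a cAMP response element (TGACGTCA) in Creb5, which begins 12 bases before the gene's start, a GC box (GGGCGG) in Erg at 111 bases, and a TATA box (TATATAA) in Cilp at 30 bases. On both strands of the 250 bases before the start, TGACGTCA stood in 1.55% of 32851 promoters and, among the 7 promoters of the matched genes, in that of Creb5. TATATAA stood in 3.04% of all promoters and in that of Cilp. GGGCGG stood in 32.7% of all promoters and in those of Creb5, Cilp2 and Erg. The AP-1 letters TGANTCA stood in 6.75% of all and in another RefSeq promoter of Creb5 further into the gene, which is not printed, while the ETS letters CCGGAAGT (2.88% of all) and the FOXO letters GTAAACA (3.17%) stood in 0 of the 7. These matches describe letters in a window and no binding was measured.

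Gdf5 (ENSMUSG00000038259; chromosome 2, 155941023 to 155945367, minus strand), the secreted BMP family ligand that marks the interzone, was the lowest of the 8 in aged cartilage and rested on few reads. It had 223, 119 and 87 counts at 2 months and 40, 0 and 0 at 18 months, or 1.75, 0.869 and 0.665 FPKM against 0.255, 0 and 0. Aged replicates 2 and 3 had no read, and aged replicate 1 was still under every young library. The log2 fold change of −3.78 (SE 1.66) missed the threshold (adjusted p = 0.103). Without aged replicate 1 the call was made (adjusted p = 0.00872), and with the floor set at 3 counts in each aged library the level was at least 56.4-fold lower. An annotated gene on the opposite strand overlaps Gdf5, and the strand setting of the counting is not given in the sources used here.

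Tppp3 (ENSMUSG00000014846; chromosome 8, 105467493 to 105471526, minus strand) encodes a tubulin-binding protein known from tendon sheath and synovial joint progenitors. It had 7.19, 8.35 and 12.3 FPKM in young libraries and 6.23, 2.07 and 2.05 in aged ones. Aged replicate 1 came close to the lowest young library without overlapping it. The mean fell from 9.26 ± 2.65 to 3.45 ± 2.41 FPKM (SD, n = 3 each), with a log2 fold change of −1.52 (SE 0.51) at the edge of the threshold (adjusted p = 0.0496). The call held without aged replicate 1 (adjusted p = 0.00825) or young replicate 2 (0.0464) and was lost without aged replicate 2 (0.137), aged replicate 3 (0.136), young replicate 1 (0.0728) or young replicate 3 (0.144).

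Since synovium and tendon express Prg4, Clu and Tppp3 as well, 8 synovial and tendon fibroblast genes were read beside them. They took 0.0338 to 0.0603% of counts in young and 0.0179 to 0.0226% in aged libraries. Of these, Pdgfra, Scx, Mkx and Fap were called lower, Thy1 was called higher, and Tnmd was at 0 in young replicate 3. Cd55 had a log2 fold change of 1.39 (edgeR adjusted p = 0.101), with every aged library above every young one. Tnmd had 0.74 and Pdpn −0.28, and neither was called. DESeq2 called 4 lower and 2 higher. The list thus split in direction, and its most abundant gene was Fap. Osteoblast genes took 0.461 to 0.675% and then 0.115 to 0.116%, with Ibsp the most abundant, and 3 of 8, Sp7, Ibsp and Alpl, were called lower. The other 5 were not called. Their log2 fold changes were −0.01 for Bglap, 0.15 for Bglap2, −0.03 for Ifitm5, −0.36 for Dmp1 and −0.97 for Phex, so the list did not fall as a whole. These values average young libraries that were far apart. In each of these 5 genes young replicate 2 lay above every aged library, and young replicates 1 and 3 lay below every one. Bglap, for example, had 118, 714 and 90.0 FPKM in the young libraries and 295 to 319 in the aged ones. Skeletal muscle genes took 0.00109 to 0.00589% and then 0.00061 to 0.00075%, with 4 of 7 tested called lower and Pvalb and Myh4 at 0 in every aged library. Over all genes tested edgeR called 21.3% lower and 14.9% higher. The part of synovial, tendon, bone and muscle cells in the results was not tested.

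**Figure D2:**
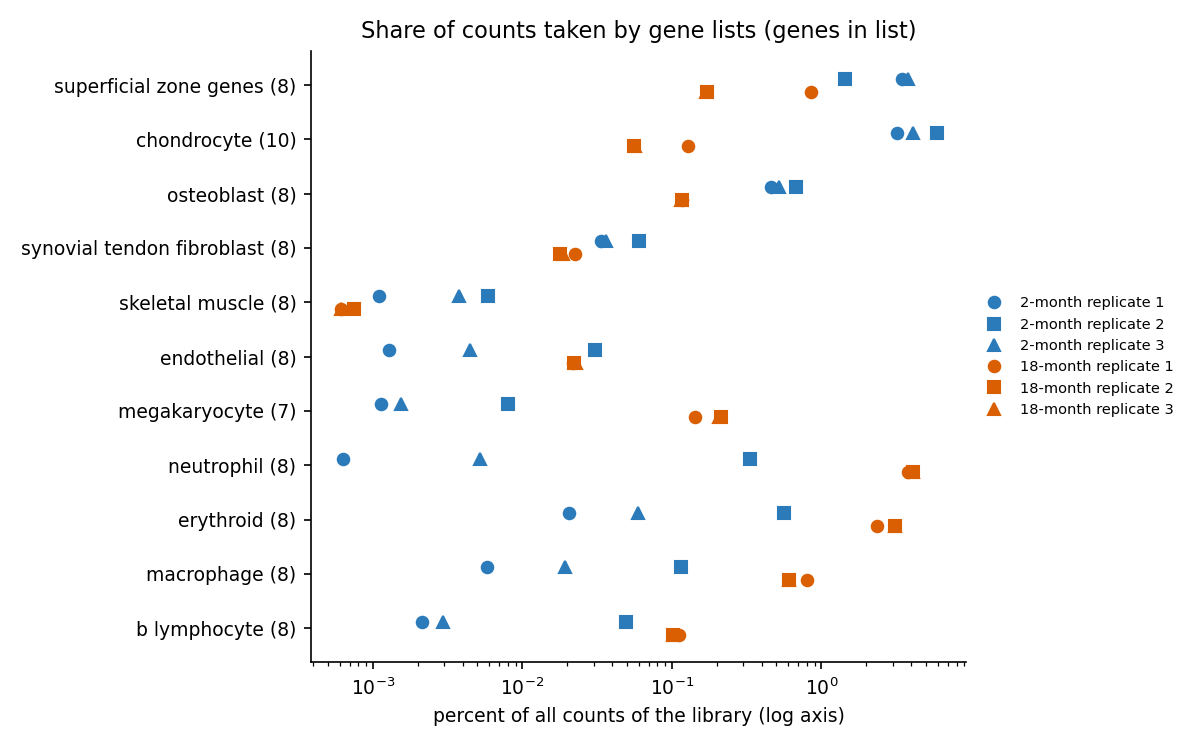
Percent of all counts in each library (log axis) taken by the 10 cell type marker lists; points are the 3 young and 3 aged libraries. The chondrocyte list falls from at least 3.20% to at most 0.128%, while the neutrophil list rises from at most 0.334% to at least 3.77%.

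By mean FPKM, the order in young cartilage was Prg4, Cilp, Clu, Cilp2, Erg, Tppp3, Creb5 and Gdf5. Prg4 did not overlap Cilp there, nor did Clu overlap Cilp2, Cilp2 Erg, Erg Tppp3, Tppp3 Creb5, or Creb5 Gdf5; the ranges of Cilp and Clu did overlap, since young replicate 2 was at 219.9 for Cilp and young replicate 1 at 278 for Clu. In aged cartilage the order was Prg4, Cilp, Clu, Erg, Tppp3, Cilp2, Creb5 and Gdf5, so that Cilp2 passed from above Erg to below Tppp3. Neighbouring ranges overlapped there for Cilp and Clu, for Tppp3 and Cilp2, for Cilp2 and Creb5, and for Creb5 and Gdf5, while Prg4 was clear of Cilp, Clu of Erg, and Erg of Tppp3.

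The comparison with the layers below asked how the surface genes fell beside the rest of the cartilage matrix. All 14 genes listed for the middle, deep and calcified zones were called lower, beside 21.3% of all genes tested. The list is one of matrix genes but also holds Ihh, a secreted signal, at −4.49. Log2 fold changes ran from −3.39 for Col11a2, a fibrillar collagen chain, to −14.61 for Epyc, a small leucine-rich proteoglycan, with a median of −6.11. Epyc had no read in any aged library, so its fitted value is no bound; against a floor of 3 counts in each aged library it was at least 1133-fold lower, and the median was still −6.11. Prg4, Erg, Creb5, Cilp, Clu and Tppp3 each had a higher log2 fold change than all 14, Gdf5 than 13 of them, and Cilp2 than 10. Of all genes tested, 94.2% had a higher log2 fold change than all 14, so the 6 of 8 is not above that background. The difference of Prg4 from the median of the deep zone list was 3.02 on the log2 scale, that of Erg was 4.93, and that of Cilp2 was 0.46. All 8 had a higher log2 fold change than Acan, the aggrecan gene, but so did 98.6% of all genes tested.

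**Figure D3:**
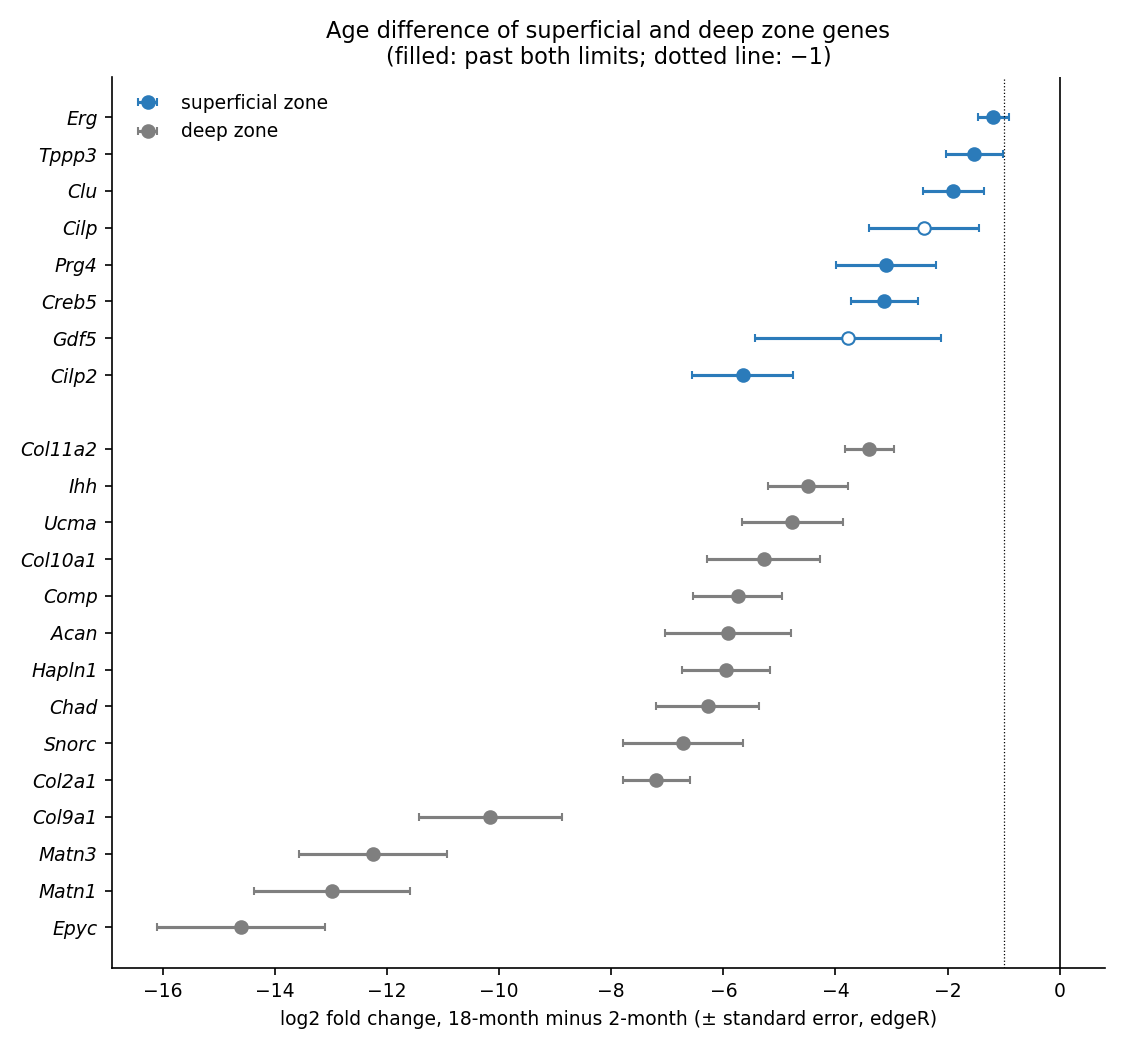
Log2 fold change, 18 months over 2 months, from edgeR for the 8 superficial zone genes and the 14 deep zone genes; points are fitted values and bars are ± 1 SE. The superficial zone genes run from −1.18 (Erg) to −5.66 (Cilp2) and the deep zone genes from −3.39 to −14.61, the last a fitted value for a gene with no read at 18 months.

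Within each library, the surface genes were set against aggrecan, encoded by Acan, whose FPKM was 1037, 728 and 1009 at 2 months and 40.5, 4.91 and 4.44 at 18 months (log2 fold change −5.91, SE 1.13, adjusted p = 0.00804). The FPKM ratio of Prg4 to Acan was 5.88, 3.54 and 6.42 in young cartilage and 34.3, 55.3 and 59.8 in aged cartilage. Every aged ratio was above every young one, and aged replicate 1, which had the highest Prg4 of its age, had the lowest ratio of its age. On the log2 scale the ratio rose from 2.35 ± 0.46 to 5.60 ± 0.43 (SD, n = 3 each), a difference of 3.24 or 9.48-fold, with a two-sided exact permutation p = 0.1, which is the smallest that 3 against 3 allows, so the test cannot reach the threshold.

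The ratio to Acan was higher in every aged library for 6 of the 8 genes, all except Cilp2 and Gdf5. The same held for 93.2% of all genes tested, so the count is below that background and says nothing particular about the 6. For Cilp the ratio was 0.659, 0.302 and 0.724 and then 6.47, 7.15 and 8.41. For Clu it was 0.268, 0.174 and 0.258 and then 2.75, 8.00 and 9.51, and for Erg 0.0266, 0.0216 and 0.0272 and then 0.317, 2.18 and 2.19. Cilp2 was different: its ratio of 0.0646, 0.0791 and 0.0859 in young cartilage overlapped the 0.0822, 0.155 and 0.0969 of aged cartilage. Of the 13 other deep zone genes, 4 had a higher ratio to Acan in every aged library and 5 a lower one.

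**Figure D4:**
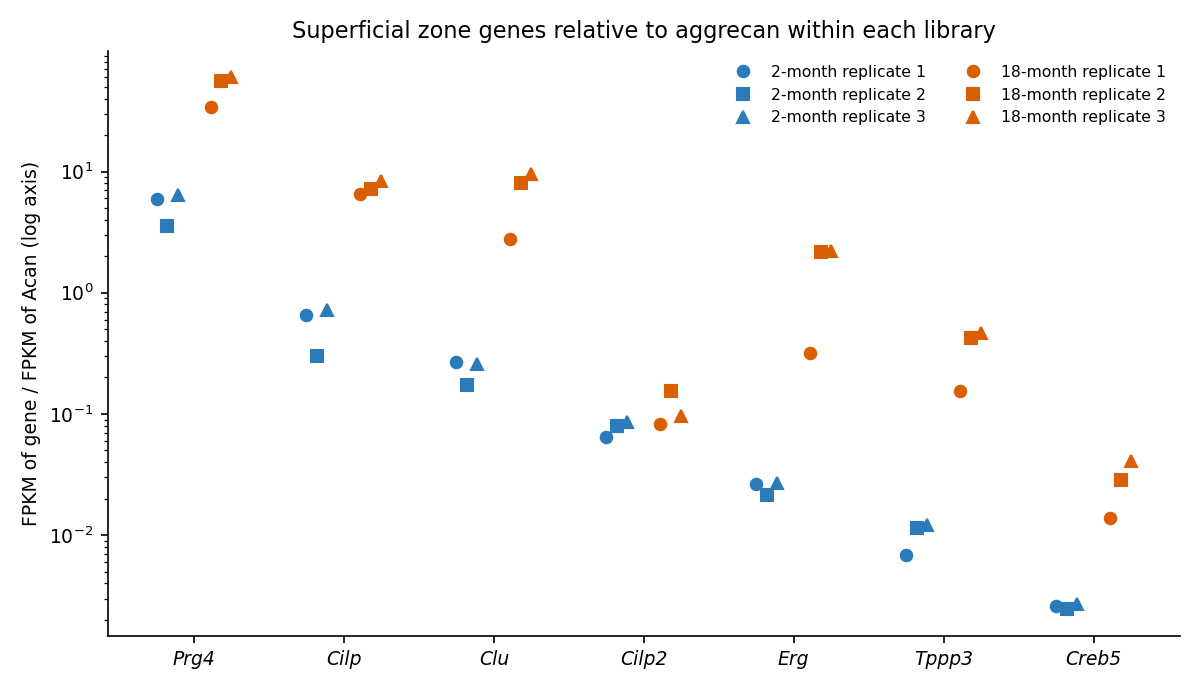
FPKM of each of the 8 genes except Gdf5, which is not drawn, divided by that of Acan in the same library. The axis is logarithmic, with 3 young and 3 aged libraries a gene. Aged ratios lie above the young ones for 6 genes, Prg4 from at most 6.42 to at least 34.3, and overlap for Cilp2.

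Young replicate 2 and aged replicate 1 were picked out above by the summed share of these 8 genes, so the values here only describe them. The share of all genes with such ratios was not computed. In young replicate 2 all 8 were below the mean of young replicates 1 and 3 in TMM-scaled CPM, from 0.282 of it for Cilp and 0.372 for Prg4 to 0.780 for Tppp3. The deep zone genes were mixed there, with 9 of 14 below and 5 above, the latter being Col2a1 at 1.87 times, Col9a1 at 3.63, Col11a2 at 2.04, Matn3 at 2.63 and Epyc at 2.55. In aged replicate 1 the ratio to the mean of aged replicates 2 and 3 was 6.95 for Cilp, 5.37 for Cilp2, 4.97 for Prg4, 3.37 for Creb5, 2.89 for Tppp3, 2.63 for Clu and 1.21 for Erg, while Gdf5 was at 0 in the other two aged libraries. All 13 deep zone genes with reads were above 1 in that library as well, Acan at 8.33.

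**Figure D5:**
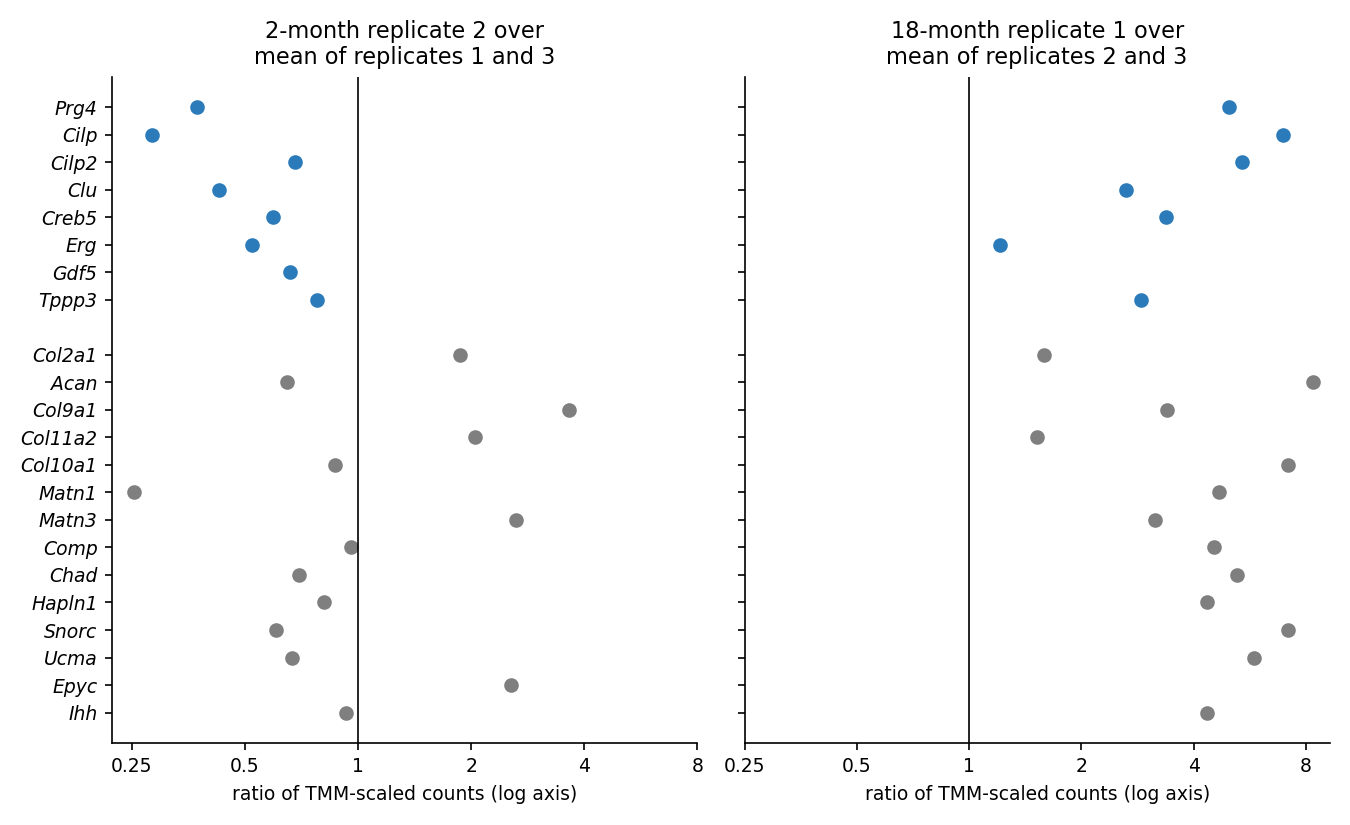
CPM of young replicate 2 over the mean of young replicates 1 and 3, and of aged replicate 1 over the mean of aged replicates 2 and 3, on log axes, for the superficial zone and deep zone genes; each point is 1 gene. In young replicate 2 all 8 superficial zone genes lie below 1 while the deep zone genes lie on both sides, and in aged replicate 1 the genes of both lists lie above 1.

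Genes of the same pathways were read from 4 lists, of which 39 genes were tested, and 20 were called lower and 4 higher, with a median log2 fold change of −1.17. Over all genes tested 21.3% were called lower and 14.9% higher, so 4 of 39 higher is near that background and says nothing particular about the lists. Without young replicate 2 the count called higher was 9. Among 14 signals and factors known to act on Prg4 or on the surface zone, 10 were called lower and 0 higher. TGF-β is a main inducer of Prg4. Of its ligands, Tgfb3 fell from 34.8 ± 5.72 to 2.33 ± 0.827 FPKM (SD, n = 3 each; log2 fold change −3.99, adjusted p = 0.00103) and Tgfb2 had −1.98 and was called lower. Tgfb1 had a log2 fold change of 0.63, within the fold limit though with an adjusted p of 0.00423. The receptor gene Tgfbr2 was called lower at −1.03, near the limit, and had −0.98 without aged replicate 3 and −0.86 without young replicate 2, whereas Tgfbr1 had −0.08 (adjusted p = 0.826). Smad3, which carries the signal to the nucleus, was called lower at −2.28.

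Foxo1, a forkhead factor that maintains the surface zone, fell from 14.6 ± 4.32 to 2.76 ± 1.22 FPKM (SD, n = 3 each; log2 fold change −2.50, adjusted p = 0.00475), and its relative Foxo3 had 0.15 (adjusted p = 0.466). Egfr and its ligand Tgfa, which act in surface chondrocytes, were called lower at −1.96 and −4.08. Pthlh, the parathyroid hormone-related signal made near the joint surface, was called lower at −6.07 and Sox9, the chondrocyte master factor, at −5.16. Nfatc2 was called lower at −1.22 but had −0.92 without young replicate 3, and Nfatc1 had −0.07 (adjusted p = 0.838).

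Of 9 interzone and joint progenitor genes, 8 were tested and 6 called lower, beside 21.3% of all genes tested. Gdf6, the nearest relative of Gdf5 on the list, and the BMP antagonist Nog each had −4.12, and Nog fell from 10.8 ± 3.82 to 0.660 ± 0.125 FPKM (SD, n = 3 each; adjusted p = 0.00144). The Wnt ligands Wnt16 and Wnt9a were called lower at −3.99 and −2.41, and the zinc finger factors Osr2 and Osr1 at −2.66 and −1.62. Some of these rest on few reads. Osr1 had 52 to 64 counts in young and 19 to 24 in aged libraries. Gdf6 had 504, 342 and 88 counts in young and 42, 11 and 13 in aged libraries. The call was lost for Wnt16 without aged replicate 3 (adjusted p = 0.0543) and for Osr2 without aged replicate 2 (0.0543) or 3 (0.0514). Wnt4 had −0.73 (adjusted p = 0.279). Col22a1 had −0.55 (adjusted p = 0.780) with 14.8 FPKM in young replicate 2 against 0.148 and 0.474 in the others, and without that library it was called higher at 3.37. Dcx had 8, 30 and 33 counts in young and 0 in aged libraries and was not tested.

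Lubrication also rests on hyaluronan, and lubricin is bound by receptors and cut by proteases. Of 11 such genes 3 were called lower and 2 higher, beside 21.3% and 14.9% of all genes tested. These counts are near that background and say nothing particular about the list. Has2, the main hyaluronan synthase of cartilage, fell from 6.57 ± 1.05 to 0.283 ± 0.183 FPKM (SD, n = 3 each; log2 fold change −4.62, adjusted p = 0.00176). Has3 was called lower at −1.67, with the call lost in 4 of 6 repeats without a library (adjusted p up to 0.0858), and Has1 had 0.45 (adjusted p = 0.792) and was called lower at −2.73 without aged replicate 1. Cd44, the hyaluronan receptor that also binds lubricin, rose from 9.42 ± 8.17 to 41.9 ± 3.74 FPKM (log2 fold change 2.12, adjusted p = 0.0316), although the call was lost in 4 of 6 repeats without a library (adjusted p from 0.0748 to 0.103). Tlr2, an innate receptor that binds lubricin, was called higher at 1.86 (adjusted p = 0.00245), while Tlr4 had 0.23 (adjusted p = 0.404). Leukocytes also express Cd44 and Tlr2, and the neutrophil and macrophage shares given above moved in the same direction; their part in these 2 calls was not tested.

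Furin, a proprotein convertase, was called lower at −1.32. Ctsb had 0.82 (adjusted p = 0.0158), under the fold limit, and was called higher at 1.03 without young replicate 2. The neutrophil proteases Ctsg, Elane and Prtn3 had 5.05, 5.01 and 4.99, with adjusted p = 0.122, 0.146 and 0.111. Young replicate 2 held 34.5, 59.3 and 27.6 FPKM of them where the other young libraries had at most 0.158, and without it the 3 genes were called higher at 11.96, 13.13 and 11.49.

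Of the nearest relatives of the 8 genes, 6 were tested. Fli1, the ETS factor closest to Erg and abundant in blood and endothelial cells, rose from 4.85 ± 2.37 to 24.7 ± 0.315 FPKM (SD, n = 3 each; log2 fold change 2.29, adjusted p = 0.00291), so that the FPKM ratio of Erg to Fli1 went from 8.64, 2.08 and 7.22 to 0.523, 0.438 and 0.388. Each aged library had more Fli1 than Erg and each young library less. Atf7, a relative of Creb5, was called lower at −1.17, and Atf2 had 0.12 (adjusted p = 0.588). Vtn, vitronectin, which shares somatomedin B and hemopexin domains with lubricin, had 0 counts in each young library and 15, 23 and 53 in the aged ones, at least 8.49-fold higher against a floor of 3 counts in each young library. Gdf7 and Tppp had −1.41 (adjusted p = 0.541) and 0.73 (adjusted p = 0.300).

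The genes whose pattern was most like that of Prg4 were found by Pearson's r of log2 CPM over the 6 libraries, among 13899 genes with a mean of at least 1 FPKM. They were Serpina1b (r = 0.999985), Gas1 (0.999578), Ackr2 (0.999192), Mycbp2 (0.998998) and Ppp1r1b (0.998548). The 6 points fall into the pattern of high young, intermediate young replicate 2 and aged replicate 1, and low aged libraries, and they share library and cell makeup, so r is a description only. Serpina1b belongs to a family of near-identical copies, and its counts are uncertain for that reason. The log2 fold changes of these genes were −3.45, −2.74, −2.31, −0.80 and −3.61. Among the other surface genes, Clu ranked 59 in likeness to Prg4, Creb5 130, Cilp 196, Cilp2 701, Tppp3 910 and Erg 1786, and Gdf5 was too low to be ranked.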

How the data were processed

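RNA of cartilage with a RIN above 7 was selected for poly(A), made into stranded dUTP libraries with UMI adapters and sequenced as paired ends of 150 bases on a NovaSeq instrument, per the labels. The submitters' processing notes name cutadapt 1.9, HISAT2 2.0.4, UMI-tools, StringTie 1.3.4d, DESeq2 and edgeR, with no role or order; the strand setting of counting is not given in the sources used here. The authors deposited 1 table with raw read counts and FPKM values per gene and library; 0 columns of samples were left out. No genome build is named, and 30888 of 33865 gene IDs found in GENCODE M21 had the same coordinates (91.2%), including all 8 genes, so positions are given in GRCm38.

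Counts were tested with edgeR 4.0.16 (TMM, filterByExpr, quasi-likelihood, Benjamini-Hochberg) in R 4.3.3, 3 young against 3 aged libraries. The FPKM values served for levels and ratios, with limma 3.58.1 on log2(FPKM + 0.1) or log2(TPM + 0.1), genes with mean FPKM of at least 0.1, and DESeq2 1.42.0 as alternatives. Ratios to Acan were tested by a two-sided exact permutation test. Libraries of the same age differed by 6.32 to 48.8 times the sampling noise and were kept separate. The code was tested on simulated data.

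Named were the 8 genes, the called genes of the lists of regulators, interzone, lubrication and paralog genes, those on which small counts rest, the 5 genes most like Prg4, Acan, Xist and leading cell type markers; not-called list genes and other deep zone genes were added after their values were seen. The genes and lists were chosen with earlier results of these data known. Fev and Tppp2 were not analysed here. Of the listed cell type markers, 1 is not reported here.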

Additional observations from a re-analysis of the deposited data

How the results depend on the processing

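All 8 superficial zone genes had a negative log2 fold change under each alternative that gave a value, and of 143 such results 107 stayed on the same side of the threshold, 24 lost the call and 12 gained it. The count called lower, 6, went to 2 with glmTreat against a fold change of 2, an alternative chosen after seeing the data, and ranged from 2 to 8 with each library left out in turn; 5 were called with RLE scaling, with total counts and with no filter, and 8 with limma on log2(FPKM + 0.1). None was called higher under any alternative. Companion genes called lower went from 20 to 12 with glmTreat and ranged from 16 to 20 without a library. Those called higher went from 4 to 9 with young replicate 2 and aged replicate 1 both left out, also chosen after seeing the data, to 7 with limma on log2(FPKM + 0.1) and to 7 on log2(TPM + 0.1), and ranged from 3 to 9 without a library. The log2 difference in the Prg4 to Acan ratio went from 3.24 to 3.76 with Col2a1 in place of Acan and ranged from 2.98 to 3.49 without a library. With TPM the median over all genes moved to −0.33 on the log2 scale. Replicate numbers are shared by the ages, but same-numbered samples deviated together with correlations of only 0.034, 0.044 and −0.024. Pairs with different numbers had −0.055 to 0.053, so no pairing by number was seen. With 3 libraries an age this check cannot exclude pairing, and a shared batch was not tested. With the replicate block 6 superficial zone genes were called lower, Cilp gained and Tppp3 lost. Of the companions 19 were called lower and 3 higher, and the Prg4 log2 fold change was −3.39. For Gdf5 the depth limits the aged level, since 2 aged libraries had no read.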
